A study of Mus musculus with 6 samples.

Results

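The genes described here encode the nuclear-encoded subunits of respiratory complexes II to V and cytochrome c. They were taken as a fixed list of 40 symbols, of which 4 belong to complex II, 9 to complex III, 11 to complex IV and 15 to complex V, with Cycs on its own. The count table held 22969 identifiers and 38 of the 40 symbols; Cox6b1 and Atp5k were not analysed here. Uqcr11 had at most 8 counts in any library and did not pass the filter on low counts, so 37 members were tested.

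Hematopoietic stem cells were sorted from the bone marrow of adult mice of the C57BL/6 strain, gated as lacking lineage markers and CD48 while carrying Sca-1, c-Kit and CD150, and their RNA was sequenced by Smart-seq2. There were 3 libraries labelled Rbfox2-deleted, with the genotype Vav1-cre; Rbfox2-fl/fl, and 3 control libraries, with the genotype Rbfox2-fl/fl. Both groups thus carry the floxed allele, and Cre is driven by Vav1, which is active across blood cells from their development on, so that the deletion is not restricted to adult stem cells. Each library came from about 500 sorted cells, and the title of the series names self-renewal and protein homeostasis as its subject. Rbfox2 encodes an RNA-binding regulator of alternative splicing.

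Oxidative phosphorylation passes electrons along complexes in the inner mitochondrial membrane and uses the resulting proton gradient to make ATP. Complex II oxidises succinate and is at the same time an enzyme of the citric acid cycle; complex III passes electrons to cytochrome c, complex IV passes them from cytochrome c to oxygen, and complex V is the ATP synthase. Complexes III, IV and V combine nuclear-encoded with mitochondrially encoded subunits, whereas every subunit of complex II is nuclear. Adult hematopoietic stem cells are known for relying less on this pathway than their dividing progeny.

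Total counts were 23474895 to 35650284 in the libraries labelled Rbfox2-deleted and 47895459 to 55151484 in the controls, with no overlap in depth between the groups. Controls 1 and 3 were close to the same library, since a chi-square test of their counts gave 3.44 per degree of freedom, against 156 or more in all other pairs, and were summed and counted as 1 sample. That leaves 3 samples labelled Rbfox2-deleted against 2 control samples. Rbfox2 had 2, 87 and 10 counts in libraries labelled Rbfox2-deleted 1, 2 and 3, against 238, 11 and 250 counts in controls 1, 2 and 3, so that Rbfox2-deleted 2 and control 2 go against their labels and every direction below rests on the labels. Rbfox2-deleted 1 stood apart on the first principal component, at 181 against -43.8 or less for the other 4 samples. Xist, which is transcribed from the inactive X chromosome of females, had 2821 and 2467 counts in Rbfox2-deleted 1 and 3, against 26 in Rbfox2-deleted 2, 104 in controls 1 and 3 summed and 3 in control 2, so the sexes of the mice differed between the groups. All 10 genes listed for the stem cell gate were detected. They summed to 1642 to 1753 CPM in libraries labelled Rbfox2-deleted and 1860 to 1942 CPM in controls. Single gate genes went both ways, with 7 log2 fold changes above 0 and 3 below, from -2.37 to 0.91. Cd48 was at or below 0.0772 CPM in each sample. With Cd34 and Flt3, the progenitor list summed to 95.5, 144 and 147 CPM in libraries labelled Rbfox2-deleted, against 99.1 and 53.6 CPM in controls, and both of those genes had log2 fold changes above 0 (0.68 and 1.76). Among lists of other cell types, 5 megakaryocyte genes summed to 52.2, 134 and 220 CPM in the libraries labelled Rbfox2-deleted, against 277 and 306 CPM in controls, and 6 erythroid genes reached 574 CPM in Rbfox2-deleted 1 against at most 162 CPM in any other sample. Summed levels of 8 myeloid genes were 1636 to 2012 CPM in libraries labelled Rbfox2-deleted and 2106 to 2878 CPM in controls, those of 6 B cell genes 129 to 212 and 230 to 322 CPM, those of 6 T and NK cell genes 104 to 199 and 87.2 to 118 CPM, and those of 6 stromal and endothelial genes 13.3 to 38.8 and 8.44 to 10.3 CPM. The 5 myeloid genes tested had log2 fold changes from -7.06 to 1.51, with 3 below 0 and 2 above. Of the defining genes, Pf4 and Klf1 were at 0 in Rbfox2-deleted 1. Their part in the results below was not tested.

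Promoters of respiratory genes are known as targets of the factors NRF1 and GABPA, the second of which binds an ETS motif, and windows of RefSeq promoters (GRCm38.p6, from 250 bases before to 50 bases after the start) were available for 32 of the 40 members. The NRF1 motif (GCGCA, any base, then GCGC), on either strand, stood in 10 of these 32 windows (31.2%), against 5.19% of 27025 genes with such a window. The ETS motif CCGGAAG stood in 12 members (37.5%), against 9.93% of all genes; AAGATGGC, the core of the YY1 motif, in 3 (9.38%), against 3.19%; and the GC box GGGCGG in 12 (37.5%), against 38.2%. These motifs do not contain one another, and a match is a description of the letters in this window. Among tested members with a window, 6 of 9 with an NRF1 match had log2 fold changes below 0, with a median of -0.73, against 17 of 20 without one, with a median of -0.68. For the ETS motif 8 of 9 with a match were below 0 (median -0.78), against 15 of 20 without (-0.68). For the GC box 9 of 12 were below 0 (-0.46), against 14 of 17 without (-0.73), and for the YY1 motif 2 of 3 (-0.58), against 21 of 26 without (-0.71). The 250 bases upstream of the start are shown for the member of each complex with the smallest p among those with a window, with matches to any of the 4 motifs in capitals. They lie on mm10 at chr13:74350241-74350490 (Sdha), chr4:116075071-116075320 (Uqcrh), chr5:115348959-115349208 (Cox6a1) and chr2:73911327-73911576 (Atp5g3), all on the minus strand, and are written 5′ to 3′ on that strand.
Sdha: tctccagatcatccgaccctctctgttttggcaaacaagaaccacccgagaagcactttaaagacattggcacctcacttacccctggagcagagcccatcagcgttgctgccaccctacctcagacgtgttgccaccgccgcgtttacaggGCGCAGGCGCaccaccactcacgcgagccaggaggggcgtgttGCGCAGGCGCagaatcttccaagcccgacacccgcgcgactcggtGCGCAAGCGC
Uqcrh: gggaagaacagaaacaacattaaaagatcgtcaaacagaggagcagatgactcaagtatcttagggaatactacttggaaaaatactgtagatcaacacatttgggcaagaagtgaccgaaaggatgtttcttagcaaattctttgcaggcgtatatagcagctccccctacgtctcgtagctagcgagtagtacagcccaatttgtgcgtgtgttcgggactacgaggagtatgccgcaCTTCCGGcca
Cox6a1: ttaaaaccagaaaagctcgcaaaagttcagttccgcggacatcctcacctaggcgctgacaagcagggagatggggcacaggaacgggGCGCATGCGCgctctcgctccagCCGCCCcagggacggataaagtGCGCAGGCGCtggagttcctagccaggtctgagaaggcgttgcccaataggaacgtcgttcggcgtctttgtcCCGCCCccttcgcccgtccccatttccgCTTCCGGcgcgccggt
Atp5g3: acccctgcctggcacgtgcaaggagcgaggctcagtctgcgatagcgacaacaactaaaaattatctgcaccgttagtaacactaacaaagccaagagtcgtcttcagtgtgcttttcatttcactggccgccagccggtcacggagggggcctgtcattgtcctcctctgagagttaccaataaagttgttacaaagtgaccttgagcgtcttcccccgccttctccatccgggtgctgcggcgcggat
Sdha carries 3 NRF1 matches and was among the members with higher values, Cox6a1 carries 2 NRF1 matches, 1 ETS match and 2 GC boxes and was among those with lower values, Uqcrh carries 1 ETS match, and the upstream part of Atp5g3 carries none. Atp5g3 still counts among the 10 members with an NRF1 match, which lies outside the bases shown.

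In stem cells labelled Rbfox2-deleted, most nuclear genes of complexes II to V lay below control when transcript length was not corrected for, but the large core subunits of complexes III and V and the catalytic subunit of complex II lay above it. The log2 fold change (Rbfox2-deleted minus control, edgeR) was below 0 for 29 of 37 members, against 46.5% of all 12350 genes tested, and the median was -0.66 against 0.11 for all genes. With limma-voom these medians were -0.67 and -0.32, and with a replicate block on 6 separate libraries -0.66 and -0.27. The 29 became 31 with upper quartile scaling, when Sdhd and Uqcrfs1 turned below 0. It became 23 with a GC correction, 20 with a coding length correction and 13 with a transcript length correction, under which the median of the members turned to 0.13 and that of all genes was 0.43. For 22 members every library labelled Rbfox2-deleted lay below both control samples (17.2% of all genes did so), and for 6 members every such library lay above both (14.9%). Of 757 other protein-coding genes with transcripts under 1000 bases, 360 lay fully below and 11 fully above. Of 788 other genes at or above the members' lower quartile of mean log CPM, 264 lay fully below and 131 fully above. Complex IV stood furthest below control, with all 10 tested members below 0 before any length correction, and complex II showed no common direction.

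No member passed the test across all genes. The edgeR quasi-likelihood test with Benjamini-Hochberg adjustment called 0 of 37 members and 0 of 12350 genes (0.0%), with adjusted p values of 0.387 to 0.984 over the members. At an unadjusted p under 0.05 it counted 18 members lower (4.56% of all genes) and 3 higher (5.33%). Among the 757 other short coding genes it counted 155 lower and 4 higher, and among the 788 genes of like abundance 160 and 85. The 18 members came to 22, 12 and 10 when Rbfox2-deleted 1, 2 or 3 was left out. In the same order, 1467 of 12346, 462 of 12145 and 591 of 12046 genes were lower. Without control 2, which leaves 1 control sample, the median of the members was -0.53. The number of members lower was 0 when sex was added to the model, and 0 with a GC or a transcript length correction. By Xist, only Rbfox2-deleted 2 shares its sex with the control samples. Every group difference given with sex in the model therefore rests on Rbfox2-deleted 2 against the controls, and its Rbfox2 counts go against its label. Of all 12350 genes, 135, 214 and 224 were lower in these 3 fits. DESeq2 called 0 members, against 0.453% of all genes lower and 1.01% higher. At an unadjusted p under 0.05 DESeq2 counted 8 members lower and 1 higher, against 416 lower and 1063 higher of 12350 genes. With limma-voom 0 members and 0 of all genes were called. In the paragraphs that follow, "lower" and "higher" therefore describe values, and no edgeR adjusted p is under 0.387. With RNA from sorted cells in bulk, fewer cells of a type and less RNA per cell cannot be told apart.

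**Figure D1:**
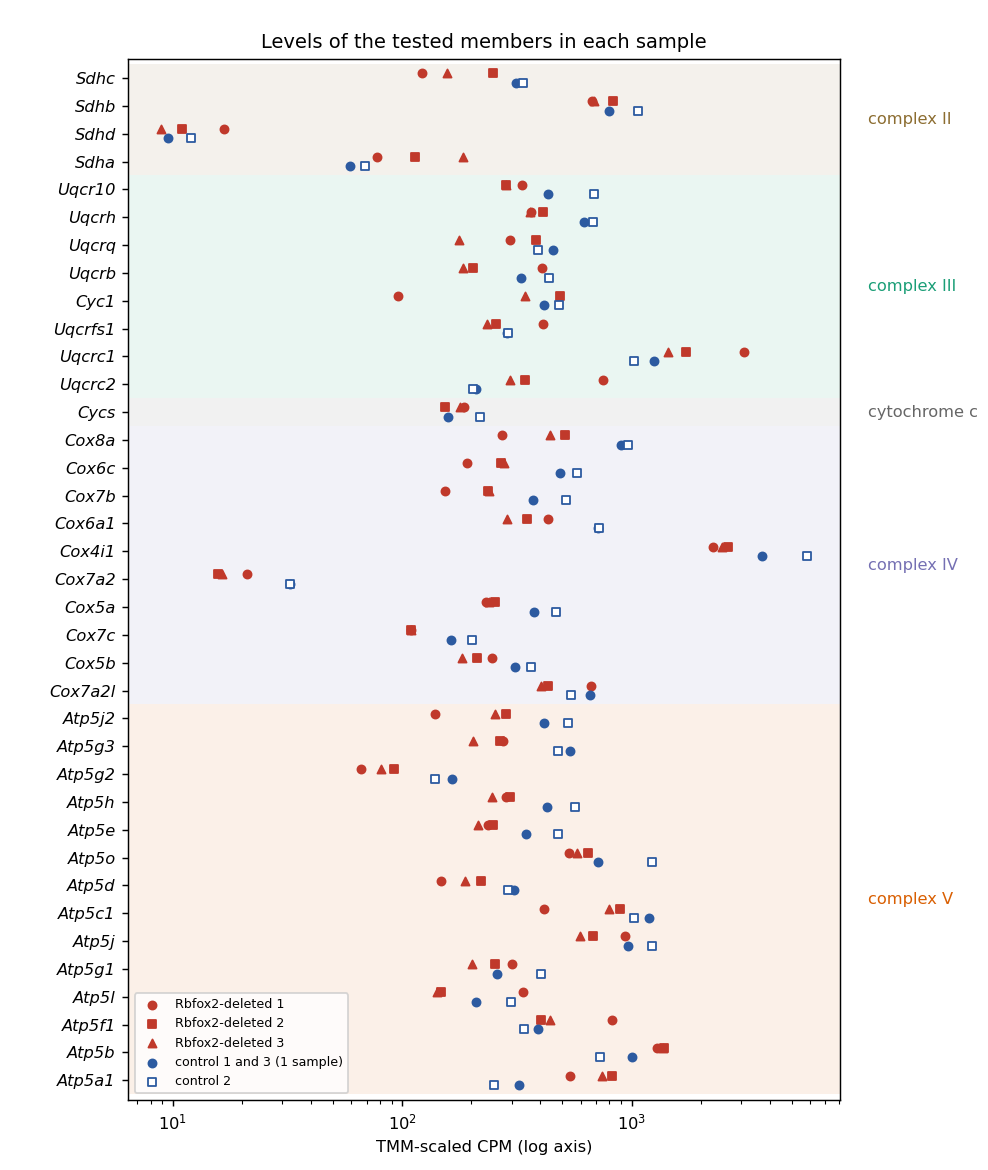
TMM-scaled CPM (log axis) of the 37 tested members in each of 3 libraries labelled Rbfox2-deleted (red, upper row of each gene) and 2 control samples (blue, lower row), grouped by complex. All 3 red points lie left of both blue points for 22 genes, and right of both for 6 genes.

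Complex II had members in both directions and a median of -0.086 (Rbfox2-deleted minus control, log2). Sdha, the flavoprotein that oxidises succinate (ENSMUSG00000021577, mm10 chr13:74322254-74350280), had 77.8, 114 and 183 CPM (counts scaled to 1000000 per library) in libraries labelled Rbfox2-deleted 1, 2 and 3, against 59.4 CPM in controls 1 and 3 and 68.8 CPM in control 2. All 3 libraries lay above both control samples, and the log2 difference was 0.96 (SE 0.472, edgeR adjusted p = 0.599), or 0.57 without Rbfox2-deleted 3. Sdhc, a membrane anchor that binds heme and ubiquinone (ENSMUSG00000058076, mm10 chr1:171127165-171150603), went the other way. It had 122, 250 and 157 CPM in libraries labelled Rbfox2-deleted 1, 2 and 3, against 314 and 335 CPM in the control samples. The groups did not overlap, at a log2 difference of -0.88 (SE 0.359, edgeR adjusted p = 0.503), or -0.38 when sex was added to the model. Sdhd, the other anchor, was scarce at 16.7, 10.9 and 8.85 CPM in libraries labelled Rbfox2-deleted, against 9.54 and 11.96 CPM in controls, with overlapping groups (log2 0.18, SE 0.954, edgeR adjusted p = 0.984). Sdhb, the iron-sulfur subunit that takes the electrons from Sdha, overlapped too, at 674 to 830 CPM in libraries labelled Rbfox2-deleted and 797 to 1063 CPM in controls. The median of this complex turned to 0.12 without control 2.

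Complex III split between its core proteins and its small subunits. Uqcrc1 and Uqcrc2 encode the core proteins, which descend from mitochondrial processing peptidases. Uqcrc2 (ENSMUSG00000030884, mm10 chr7:120635176-120659524) had 749, 345 and 297 CPM in libraries labelled Rbfox2-deleted 1, 2 and 3, against 209 and 204 CPM in the control samples. Uqcrc1 (ENSMUSG00000025651, mm10 chr9:108936633-108949623) had 3090, 1730 and 1444 CPM in those libraries, against 1257 and 1029 CPM in controls. Both genes were above control in 3 of 3 libraries and highest in Rbfox2-deleted 1, with log2 fold changes of 1.17 (SE 0.455, edgeR adjusted p = 0.485) and 0.87 (SE 0.379, edgeR adjusted p = 0.532). Without Rbfox2-deleted 1 these were 0.62 for Uqcrc2 and 0.46 for Uqcrc1, and Uqcrc2 was at 0.74 when sex was added to the model.

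The tested small subunits of complex III had log2 fold changes below 0. Uqcrh, the hinge protein between cytochrome c1 and cytochrome c (ENSMUSG00000063882, mm10 chr4:116066965-116075071), had 366, 411 and 361 CPM in libraries labelled Rbfox2-deleted 1, 2 and 3, against 619 and 679 CPM in controls. Uqcr10, a small transmembrane subunit (ENSMUSG00000059534, mm10 chr11:4701973-4704342), had 334, 283 and 283 CPM in libraries labelled Rbfox2-deleted, against 432 and 687 CPM in controls. Neither gene overlapped between groups, and their log2 fold changes were -0.78 (SE 0.219, edgeR adjusted p = 0.387) and -0.90 (SE 0.282, edgeR adjusted p = 0.398); Uqcr10 was at -0.52 without control 2. Uqcrq, a further small subunit, was also fully separated (log2 -0.56), while Uqcrb (-0.54) overlapped. The margin for Uqcrq was small, with 384 CPM in Rbfox2-deleted 2 against 390 CPM in control 2. Of the redox subunits, the Rieske iron-sulfur protein Uqcrfs1 had 413, 255 and 235 CPM in libraries labelled Rbfox2-deleted, against 286 and 290 CPM in controls, with overlapping groups (log2 0.06, SE 0.326, edgeR adjusted p = 0.983). Cytochrome c1, from Cyc1, had 95.8 CPM in Rbfox2-deleted 1 but 487 and 343 CPM in Rbfox2-deleted 2 and 3, against 415 and 481 CPM in controls (log2 -0.54, SE 0.613). Rbfox2-deleted 1 was low and the other libraries overlapped. Uqcr11 had 0, 3 and 0 counts in libraries labelled Rbfox2-deleted, against 3, 5 and 8 in controls 1, 2 and 3.

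Cytochrome c itself did not separate the groups. Cycs, the mobile electron carrier that is also released in apoptosis (ENSMUSG00000063694, mm10 chr6:50562563-50566538), had 186, 154 and 179 CPM in libraries labelled Rbfox2-deleted 1, 2 and 3, against 159 and 218 CPM in the control samples. The control values enclosed all but 1 of the values labelled Rbfox2-deleted (log2 -0.12, SE 0.291, edgeR adjusted p = 0.961). Hccs, the lyase that attaches heme to cytochrome c, had 0.202, 5.74 and 6.59 CPM in libraries labelled Rbfox2-deleted, against 1.37 and 1.02 CPM in controls (log2 1.81, SE 1.82, edgeR adjusted p = 0.885).

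Complex IV, cytochrome c oxidase, had a median log2 fold change of -0.92, with 10 of 10 tested members below 0 and 9 of them fully separated. With the transcript length correction 5 of 10 were below 0 and the median was -0.041. Its nuclear subunits surround a catalytic core that the mitochondrial genome encodes. Cox6c (ENSMUSG00000014313, mm10 chr15:35925886-35938246) had 192, 269 and 279 CPM in libraries labelled Rbfox2-deleted 1, 2 and 3, against 487 CPM in controls 1 and 3 and 579 CPM in control 2. Cox6a1, the ubiquitous form of a regulatory subunit (ENSMUSG00000041697, mm10 chr5:115345642-115348981), had 433, 351 and 287 CPM in those libraries, against 715 and 721 CPM in controls. Cox8a (ENSMUSG00000035885, mm10 chr19:7215153-7217616) had 273, 513 and 441 CPM in those libraries, against 901 and 961 CPM in controls. In all 3 genes the highest library labelled Rbfox2-deleted stayed under the lower control sample, and means were 46.2%, 49.7% and 44.0% of the control mean. Log2 fold changes were -1.11 (SE 0.269) for Cox6c, -1.01 (SE 0.258) for Cox6a1 and -1.19 (SE 0.312) for Cox8a, each with an edgeR adjusted p = 0.387.

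The other tested members of complex IV were also at log2 fold changes below 0. Cox4i1, an early-assembling subunit through which ATP regulates the enzyme, was the most abundant member per transcript length in controls, at 6251 CPM per kilobase. It had 2275, 2635 and 2477 CPM in libraries labelled Rbfox2-deleted, against 3712 and 5853 CPM in controls (log2 -0.96). Cox7b was at -1.08, Cox5a at -0.80, Cox7c at -0.73 and Cox5b at -0.66, all fully separated. Cox7a2 and Cox7a2l are paralogs; the first is a subunit of the oxidase and the second joins complex III to complex IV in supercomplexes, with a shortened form known from C57BL/6 mice. Cox7a2 had 20.9, 15.7 and 16.3 CPM in libraries labelled Rbfox2-deleted, against 32.4 and 32.4 CPM in controls (log2 -0.88, SE 0.699, edgeR adjusted p = 0.817). Cox7a2l had 668, 433 and 402 CPM in those libraries, against 661 and 546 CPM in controls, and was the only tested complex IV member to overlap (log2 -0.27, SE 0.302, edgeR adjusted p = 0.90).

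**Figure D2:**
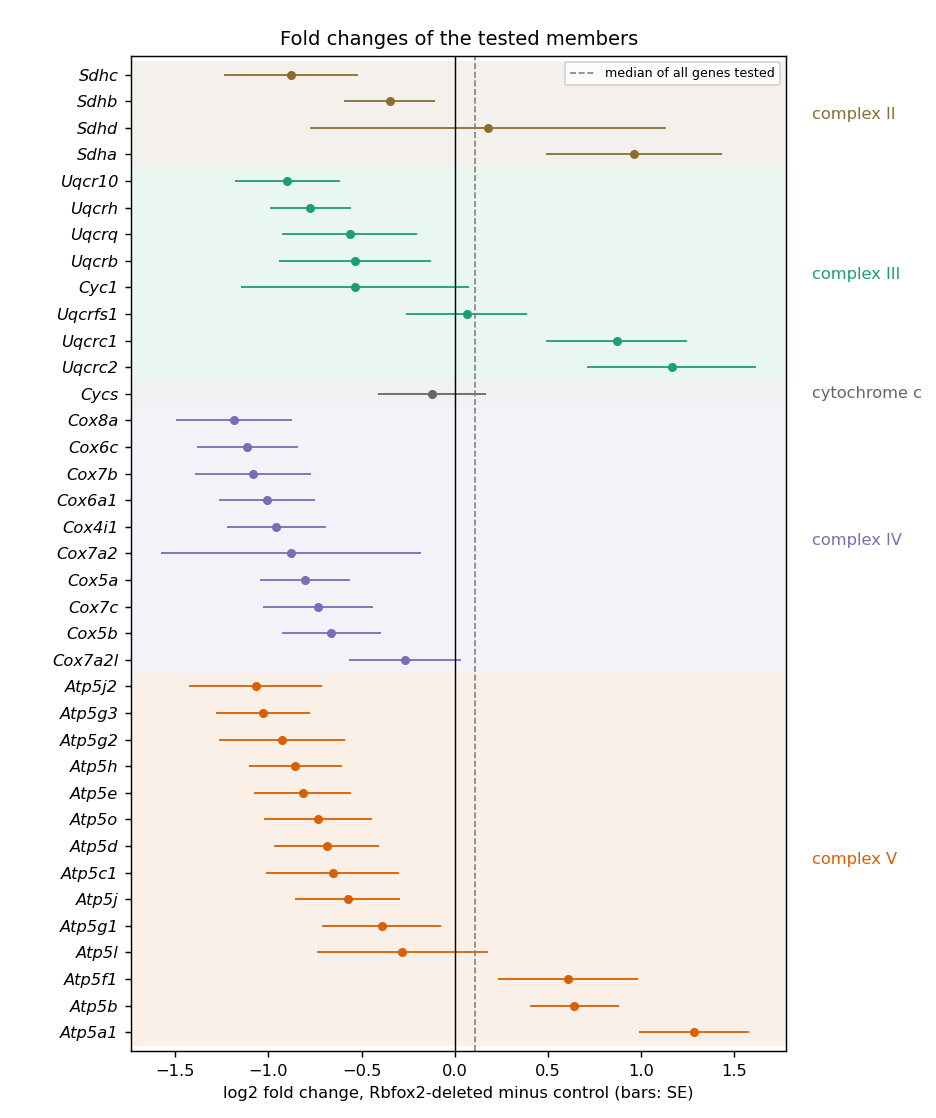
Log2 fold change (Rbfox2-deleted minus control) with its SE from edgeR for the 37 tested members by complex; the dashed line is the median of all genes, 0.11. All 10 complex IV members lie left of 0, while Sdha, Uqcrc1, Uqcrc2, Atp5f1, Atp5b and Atp5a1 lie right of 0.5.

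Complex V, the ATP synthase, split between the main subunits of its catalytic head and its central stalk. Atp5a1, the alpha subunit (ENSMUSG00000025428, mm10 chr18:77773729-77782869), had 537, 822 and 746 CPM in libraries labelled Rbfox2-deleted 1, 2 and 3, against 325 and 252 CPM in the control samples. Atp5b, the catalytic beta subunit (ENSMUSG00000025393, mm10 chr10:128083273-128090391), had 1293, 1388 and 1365 CPM in those libraries, against 1000 and 730 CPM in controls. Both were above control in 3 of 3 libraries, with log2 fold changes of 1.28 (SE 0.294, edgeR adjusted p = 0.387) and 0.64 (SE 0.240, edgeR adjusted p = 0.467). Atp5a1 also had the smallest DESeq2 adjusted p of the members, at 0.125. The subunits of the central stalk, which turns inside this head, were on the other side: Atp5c1 (gamma) was at -0.66, Atp5d (delta) at -0.69 and Atp5e (epsilon) at -0.82, all fully separated.

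The peripheral stalk, which holds the head still, was divided as well. Atp5f1, subunit b (ENSMUSG00000000563, mm10 chr3:105942698-105960099), had 825, 403 and 440 CPM in libraries labelled Rbfox2-deleted, against 390 and 340 CPM in controls, a log2 fold change of 0.61 (SE 0.376, edgeR adjusted p = 0.712), which was 0.19 without Rbfox2-deleted 1 and 0.14 when sex was added to the model. Every such library lay above both controls, Rbfox2-deleted 2 by a small margin. Atp5h, subunit d (ENSMUSG00000034566, mm10 chr11:115415689-115419962), had 283, 295 and 246 CPM in those libraries, against 428 and 567 CPM in controls. It was fully separated at log2 -0.86 (SE 0.249, edgeR adjusted p = 0.387), as were Atp5o, the oligomycin sensitivity protein (-0.73), and Atp5j, coupling factor 6 (-0.58). Atp5j shares 12.7% of its exon bases with exons of Gabpa, the gene of the ETS factor named above. Gabpa had 0.0506, 2.70 and 1.57 CPM in libraries labelled Rbfox2-deleted, against 3.05 and 1.60 CPM in controls. Of the small membrane subunits, Atp5j2 (subunit f) was at -1.07 and fully separated, and Atp5l (subunit g) at -0.28 and overlapping.

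The c-ring, the rotor in the membrane, is made from 3 genes that encode the same mature protein behind different import sequences. Atp5g3 (ENSMUSG00000018770, mm10 chr2:73908447-73911326) had 276, 266 and 203 CPM in libraries labelled Rbfox2-deleted 1, 2 and 3, against 538 and 476 CPM in controls (log2 -1.03, SE 0.253, edgeR adjusted p = 0.387). Atp5g2 (ENSMUSG00000062683, mm10 chr15:102662864-102672352) had 66.1, 91.7 and 81.2 CPM in those libraries, against 165 and 138 CPM in controls (log2 -0.93, SE 0.340, edgeR adjusted p = 0.463). Both were fully separated. Atp5g1 (ENSMUSG00000006057, mm10 chr11:96068852-96075670) had 302, 254 and 202 CPM in those libraries and overlapped with the 258 and 405 CPM of controls (log2 -0.39, SE 0.318, edgeR adjusted p = 0.823). Its log2 value was -0.024 without control 2 and -0.71 without controls 1 and 3. Summed over the 3 genes the levels were 644, 612 and 486 CPM in libraries labelled Rbfox2-deleted, against 961 and 1019 CPM in controls. The share of Atp5g1 in that sum was 46.9%, 41.6% and 41.5% in libraries labelled Rbfox2-deleted, against 26.9% in controls 1 and 3 and 39.7% in control 2, so that control 2 lay closer to the libraries labelled Rbfox2-deleted than to the other control sample.

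**Figure D3:**
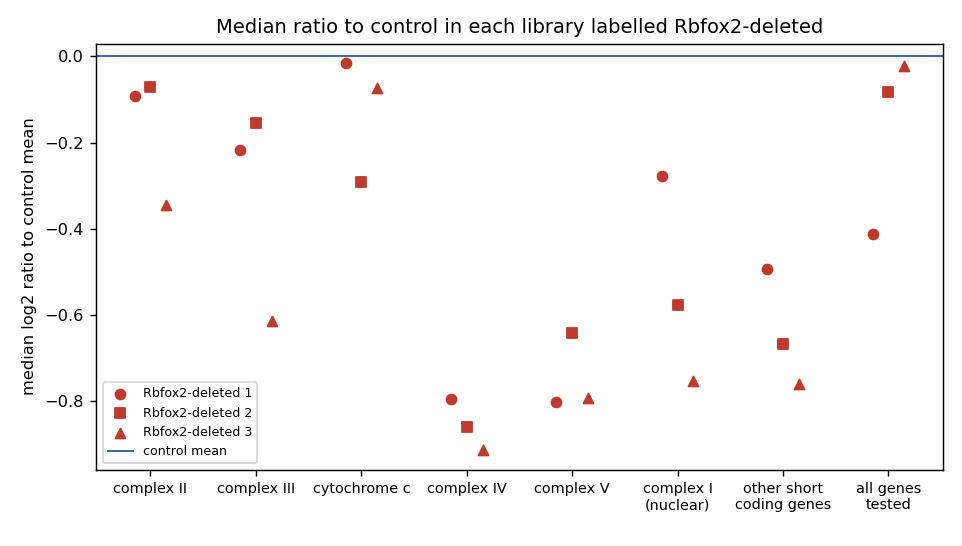
Median over the genes of a group of the log2 ratio of each library labelled Rbfox2-deleted (red, 3 symbols) to the control mean (blue line at 0), with 1 CPM added to both. Complexes IV and V lie between -0.64 and -0.91 in all 3 libraries, and complex II lies between -0.07 and -0.35. Other short coding genes lie between -0.49 and -0.76, and all genes tested between -0.02 and -0.41.

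Summed levels differed between complexes in how far they stood from control. Complex IV summed to 4768 ± 228 CPM (SD, n = 3) in libraries labelled Rbfox2-deleted, against 8987 ± 1785 CPM (SD, n = 2) in controls, or 53.1% of control. Complex V summed to 6338 ± 296 CPM, against 7619 ± 513 CPM in controls, or 83.2%. Complex III reached 4389 ± 1237 CPM, against 4100 ± 139 CPM in controls, or 107%, with Uqcrc1 alone giving 3090 of 5747 CPM in Rbfox2-deleted 1. That library was above both control samples (4001 and 4198 CPM), whereas Rbfox2-deleted 2 lay between them, at 4098 CPM, and Rbfox2-deleted 3 below both, at 3324 CPM, so the higher mean rests on Rbfox2-deleted 1. Complex II summed to 1044 ± 157 CPM, against 1329 ± 212 CPM in controls, or 78.5%. These sums overlapped, at 1204 CPM in Rbfox2-deleted 2 and 1180 CPM in controls 1 and 3. Sdhb alone gave 731 of the 1044 CPM and 930 of the 1329 CPM. By the median over genes, the libraries labelled Rbfox2-deleted 1, 2 and 3 stood at log2 ratios to the control mean of -0.79, -0.86 and -0.91 for complex IV, -0.80, -0.64 and -0.79 for complex V, and -0.22, -0.16 and -0.61 for complex III. In the same order the medians of all genes tested were -0.41, -0.08 and -0.02. Those of 757 other protein-coding genes under 1000 bases were -0.49, -0.67 and -0.76. The nuclear subunits of complex I had medians of -0.28, -0.58 and -0.75 in the same libraries, with 31 of 34 tested genes below control by edgeR. With the transcript length correction 6 of those 34 were below 0, and their median was 0.14, against 0.43 for all genes. No p was computed for these summaries.

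Coding length separated the members that lay above control from those below. Of 26 tested members with a coding sequence under 600 bases, 25 had log2 fold changes below 0, with a median of -0.81, the exception being Sdhd. Of 11 members with 600 bases or more, 7 were above 0, with a median of 0.61; Sdhb, Cyc1, Atp5c1 and Atp5o were below. This limit was chosen after the values were seen. Transcript length gave a like picture, with 19 of 19 members under 1000 bases below 0 (median -0.86) and 10 of 18 longer ones (median -0.20). Values of other genes differed with length as well: 757 other protein-coding genes with transcripts under 1000 bases had a median of -0.61, and 620 of them were below 0. The median transcript length of a counted read was 1670 to 1749 bases in libraries labelled Rbfox2-deleted and 1465 to 1494 bases in controls. Its part in the members' values was not tested beyond the corrections given next. Among 5047 other genes with transcripts from 2000 to under 4000 bases the median was 0.39.

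**Figure D4:**
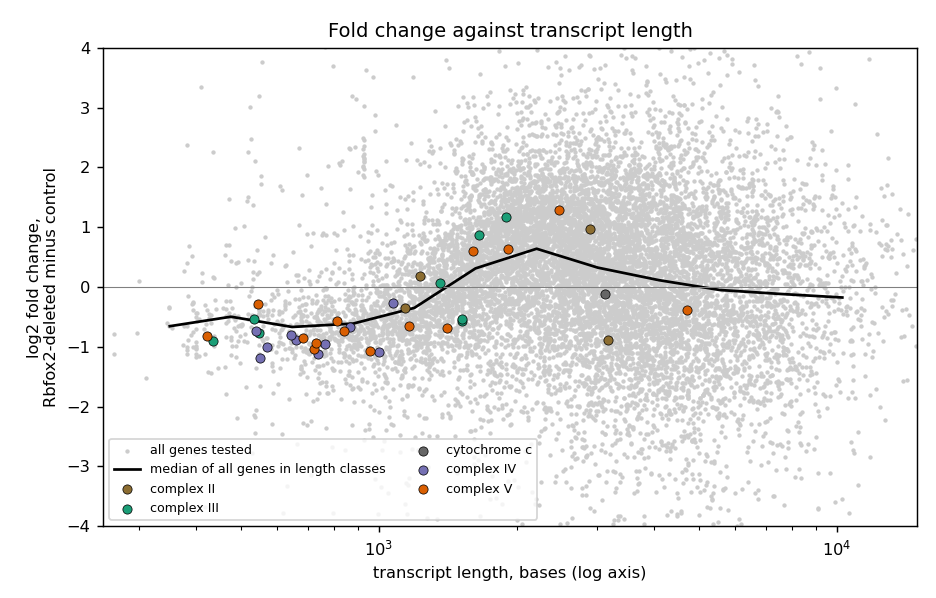
Log2 fold change (Rbfox2-deleted minus control) of 12328 genes against transcript length in bases (log axis), with the median in length classes of at least 20 genes (black line) and the members in colour; 379 genes beyond ±4 are not drawn. Members under 1000 bases all lie below 0, and Uqcrc1, Uqcrc2, Atp5a1 and Sdha lie above 0.

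With an offset fitted on transcript length in each sample, the median of the members was 0.13 and that of all genes 0.43, so the members stood at -0.31 relative to all genes, against -0.77 without the correction. Relative to all genes, complex IV was at -0.48 with the correction and -1.03 without, complex V at -0.32 and -0.78, complex III at -0.16 and -0.65, and complex II at 0.13 and -0.20. With an offset on coding length in its place the members stood at -0.45 relative to all genes, and with one on GC content at -0.76. With the length correction 13 of 37 members were below 0, against 29 without it. Atp5a1 (1.24), Uqcrc1 (1.14), Uqcrc2 (1.35), Sdha (1.001), Atp5f1 (0.92) and Atp5b (0.61) then stood above the median of all genes, as did Sdhd, Uqcrfs1, Cox7a2l, Atp5g1 and Atp5l, at 0.50 to 0.84. With the coding length correction Atp5g1 (0.196) and Cox7a2l (0.380) lay below the median of all genes (0.384), and the other genes just named stayed above it. The length used for Atp5g1 was 4715 bases, and its shortest principal form has 596.

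**Figure D5:**
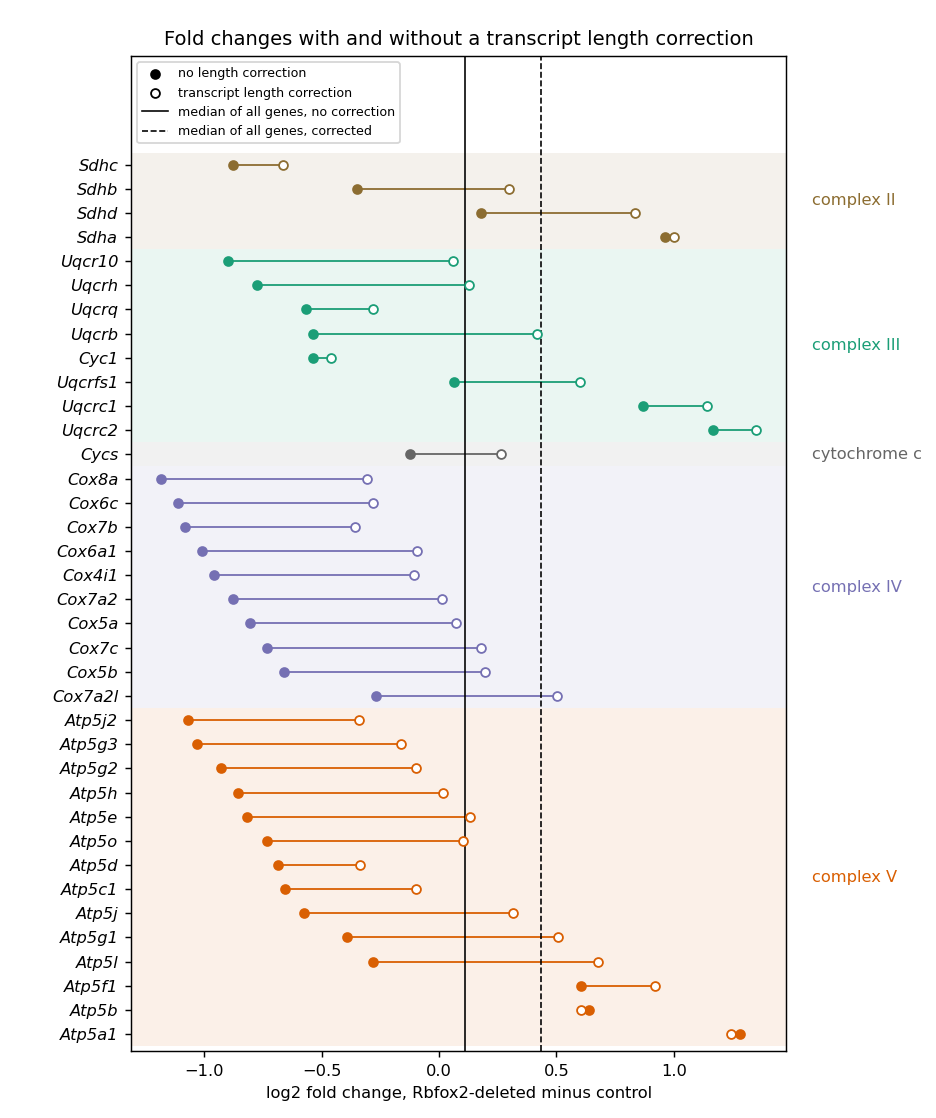
Log2 fold change (Rbfox2-deleted minus control) of each tested member without a length correction (filled) and with an offset fitted on transcript length (open), with the median of all genes in each case (solid line at 0.11, dashed line at 0.43). After the correction 9 of 10 complex IV members lie left of the dashed line, and Cox7a2l lies right of it.

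Of 6 mitochondrially encoded partners, 5 had log2 fold changes below 0, and 3 were fully separated below control (17.2% of all genes were). The core subunits of complex IV that mitochondria encode were lower in every library labelled Rbfox2-deleted: mt-Co2 had 2536, 2538 and 1451 CPM in Rbfox2-deleted 1, 2 and 3, against 4433 and 4698 CPM in controls (log2 -1.07, SE 0.302, edgeR adjusted p = 0.387). The second gene by p, mt-Co3, was at -0.87 (SE 0.291, edgeR adjusted p = 0.42), and mt-Co1 was also fully separated, at -0.62. The others overlapped between groups: mt-Cytb, of complex III, was at 0.22, and mt-Atp6 and mt-Atp8, of complex V, were at -0.29 and -0.17. These transcripts are 1144 bases or shorter apart from mt-Co1. With the transcript length correction 2 of the 6 genes were below 0, and their median was 0.29, against 0.43 for all genes.

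Other genes of the pathway were read from lists of assembly factors, alternative subunits and regulators. By edgeR none passed the threshold. Of 39 tested assembly factors for complexes II to V, 23 lay below control, with a median of -0.31; 12 were fully separated below and 5 above, where all genes gave 17.2% below and 14.9% above. Of the factors for complex IV, 16 of 23 were below 0, with a median of -0.44, and 9 were fully separated below. With the transcript length correction 16 of the 39 factors were below 0 (median 0.096), and 12 of the 23 for complex IV (median -0.018). The median of all genes was then 0.43. Cox14, which binds newly made mt-Co1, had 388, 297 and 333 CPM in libraries labelled Rbfox2-deleted, against 657 and 889 CPM in controls (log2 -1.19, SE 0.256, edgeR adjusted p = 0.387). The copper chaperone Cox17 was at -0.79 (SE 0.266, edgeR adjusted p = 0.425). For complex V, 4 of 6 lay above control. Atpaf1, the chaperone of the beta subunit, had 83.1, 73.5 and 67.8 CPM in libraries labelled Rbfox2-deleted, against 17.4 and 24.6 CPM in controls (log2 1.83, SE 0.508, edgeR adjusted p = 0.387), and DESeq2 called it (adjusted p = 0.0412). Its values stood above control in 3 of 3 libraries, as did those of Atpaf2, the chaperone of the alpha subunit (log2 0.78), and Tmem70, which takes part in c-ring assembly (log2 0.67). Tmem242 was on the other side, at -0.76 (SE 0.327, edgeR adjusted p = 0.528).

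For complex III, the factor Uqcc3 was at -0.98 (SE 0.266, edgeR adjusted p = 0.387) and Lyrm7, which handles the Rieske protein, at 1.69 (SE 1.02, edgeR adjusted p = 0.703). For complex II, Sdhaf2, which adds the flavin to Sdha, had 208, 93.7 and 95.9 CPM in libraries labelled Rbfox2-deleted, against 70.4 and 69.9 CPM in controls (log2 0.92, SE 0.483, edgeR adjusted p = 0.639), and Sdhaf4 was at -0.48 (SE 0.416, edgeR adjusted p = 0.849). Among alternative or accessory subunits, 5 of 5 tested lay below control; Cox6b2 was at -1.32 (SE 0.614, edgeR adjusted p = 0.567) and Atpif1, the inhibitor of the ATP synthase, at -0.50 (SE 0.241, edgeR adjusted p = 0.592). Of 12 regulators of mitochondrial gene expression, 4 had log2 fold changes below 0. The libraries differed: 8, 5 and 4 of the 12 lay below the control mean in Rbfox2-deleted 1, 2 and 3. Their median log2 ratios were -1.36, 0.13 and 0.47. Nrf1 had 51.3, 19.1 and 25.7 CPM in libraries labelled Rbfox2-deleted, against 12.2 and 10.02 CPM in controls (log2 1.53, SE 0.842, edgeR adjusted p = 0.664), and Tfb1m was at -0.83 (SE 0.884, edgeR adjusted p = 0.89). In complex I, Ndufs7 and Ndufb9 had the smallest p, at -1.16 (SE 0.249) and -1.12 (SE 0.283), both with an edgeR adjusted p = 0.387.

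Some counts are uncertain because of near-identical copies or overlapping genes. Of the tested members, 13 have at least 1 annotated pseudogene with 95% or more identity over 100 bases or more, up to 9 for Atp5l, and the sources used here do not say how reads with several matches were counted. Counts of those copies were not analysed here. Exons of 12 members share bases with an exon of another gene, up to 47.9% for Atp5o. The 18 tested members with neither feature had a median log2 fold change of -0.72, with 13 below 0, and the other 19 had -0.66, with 16 below 0.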

How the data were processed

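Libraries were made by Smart-seq2, in which cDNA of whole transcripts is amplified, from about 500 cells each, per the labels' protocols. The authors deposited counts of reads per Ensembl gene, not normalized; Trimmomatic 0.39, featureCounts and DESeq2 1.36.0 and the build mm10 are named in the submitters' processing notes. The aligner, annotation and strand setting were not stated in the sources used here.

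Rows sharing an identifier were summed (60 identifiers, 0.449% of counts), and symbols, coordinates and lengths came from GENCODE M21 on the same build. Length was that of the longest APPRIS principal transcript; Atp5g1 and Uqcrq also have short principal forms. Controls 1 and 3 were summed as 1 sample. Genes were filtered (filterByExpr, minimum count 10, minimum total 15), scaled by TMM and tested with edgeR 4.0.16 in R 4.3.3 (quasi-likelihood, group only, two-sided, Benjamini-Hochberg over 12350 genes, threshold 0.05). CPM are counts scaled to 1000000 per library with TMM factors. Total counts of 23474895 to 55151484 per library set counting error; p-values measure the spread between 5 samples. limma 3.58.1 (voom) and DESeq2 1.42.0 were alternatives, and the script was tested on simulated data. Pseudogene copies were found with blastn 2.17.0.

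All members are named, and values in every sample are given for those with the smallest p in each complex, the c-subunit genes, Cycs, Cox7a2, Cox7a2l and those above 0. For each pathway list up to 2 genes with the smallest p are named, and further genes were named after their values were seen. The members and lists were chosen with earlier results of these data known.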

Additional observations from a re-analysis of the deposited data

How the results depend on the processing

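The number of members called, 0, was the same under all 21 alternatives. DESeq2 called 181 of all genes and 1 of the pathway genes, Atpaf1, against 0 each by edgeR. None of the 21 members given in full passed a threshold under any alternative. Log2 medians moved most with the corrections. For all members, complex II, III, IV and V, the medians were 0.13, 0.57, 0.27, -0.041 and 0.12 with the transcript length correction, -0.070, 0.34, 0.15, -0.31 and -0.073 with the coding length correction (chosen after the data were seen), and -0.29, 0.38, -0.0072, -0.41 and -0.32 with the GC correction. In the same order they were 0.16, 0.54, 0.24, -0.025 and 0.22 with the replicate block and length correction together, -0.34, 0.28, -0.27, -0.54 and -0.30 with the replicate block and GC correction together, and -0.998, -0.44, -0.85, -1.26 and -0.97 with upper quartile factors, when the median of all genes was -0.20. With no filter they were -0.83, -0.25, -0.72, -1.08 and -0.82. The replicate block alone gave -0.84 for complex IV, 6 separate libraries gave -0.85, and sex as a covariate gave -0.16 for complex III. That last value rests on Rbfox2-deleted 2 against the controls, since no other library labelled Rbfox2-deleted shares their sex. The cause of these shifts was not tested. Replicate numbers are shared by both groups, and deviations of same-numbered libraries from their group means correlated at -0.047, -0.021 and 0.047. Because controls 1 and 3 were close to the same library, these correlations cannot show whether replicate numbers pair the libraries. The replicate block gave -0.66 for all members and -0.27 for all genes, and changed no call. Members thus stood at -0.39 relative to all genes. With the replicate block and length correction, members stood at 0.10 relative to all genes, against -0.77. Leaving out 1 library gave -0.83 to -0.53 for all members, -0.22 to 0.12 for complex II, -0.62 to -0.34 for complex III, -0.94 to -0.72 for complex IV and -0.84 to -0.47 for complex V, with the value nearest 0 in complex IV and V without control 2; without controls 1 and 3 together the values were -0.77, -0.29, -0.57, -1.02 and -0.74. Members fully separated below control numbered 22 to 27 when any 1 of the 5 samples was left out (of all genes, 23.9% to 26.8%). Leaving out a control sample leaves 1, which is assumed to vary like the others. Every tested member had 330 counts or more in each library, and depth limits Uqcr11.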
